A study of Mus musculus with 6 samples.

Results

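The genes described here are 10 regulators and readouts of the integrated stress response and the unfolded protein response, namely Atf4, Ddit3, Trib3, Asns, Chac1, Hspa5, Xbp1, Atf6, Ern1 and Ppp1r15a. They were chosen by gene symbol, all 10 were found among the 13363 genes with deposited expression values, and no filter on low values was applied here. Every one of these genes had a value above 0 in all 6 samples, so the table may already leave out genes at 0 in any sample, and genes outside it were not analysed here. RNA was sequenced from the gastrocnemius, a calf muscle, in 3 samples of the C26 group and 3 samples of the Control group. The labels number these samples without naming animals, and each is called a muscle here. The mice were males of the inbred strain Balb/c, bought at 6 weeks of age. Mice of the C26 group carried a tumor grown from C26 cells, a mouse colon adenocarcinoma line that causes wasting, injected under the skin of the flank. Control mice carried no tumor, and mice had been assigned to the groups at random. A single tumor line at a single site was used, and whole muscle was sequenced, so the values are of all its cells together. The comparison asks how transcripts of the wasting muscle differ from those of normal muscle.

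Proteins that enter the endoplasmic reticulum (ER) are folded there by chaperones, of which BiP, the product of Hspa5, is the best known. When unfolded proteins build up, BiP is drawn away from the sensors PERK (Eif2ak3), IRE1 (Ern1) and ATF6. IRE1 splices the Xbp1 transcript so that it encodes an active transcription factor, and ATF6 is cut by proteases in the Golgi to release another, while PERK phosphorylates the initiation factor eIF2. The kinases GCN2 (Eif2ak4), PKR (Eif2ak2) and HRI (Eif2ak1) phosphorylate eIF2 too, in response to lack of amino acids, viral RNA or lack of heme, which slows translation in general and favors that of ATF4. ATF4 is thus regulated mainly at translation, and its targets include Ddit3 (CHOP), Trib3, Asns, Chac1 and Ppp1r15a. The product of Ppp1r15a (GADD34) guides a phosphatase back to eIF2 and closes the loop.

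The promoter windows of the members are shown because they were searched for known binding motifs of these factors, and those of 5 members held a match. RefSeq promoters of GRCm38.p6, 250 bases before to 50 bases after the transcription start, were found for 9 of the 10 members, with none for Atf6. Motifs were searched on both strands, and capitals mark the matches. The core of the C/EBP-ATF response element bound by ATF4, TGATGNAA, was found in the windows of Chac1, Trib3 and Asns, and in 3.97% of 32851 windows of all genes. The ER stress response element, CCAAT and CCACG with 9 bases between them, was found in the window of Hspa5 and in 0.119% of all windows. The cAMP response element TGACGTCA, a palindrome, was found in that of Ppp1r15a and in 1.79% of all windows. The unfolded protein response element TGACGTGG was found in 0 of the members' windows and in 0.676% of all windows. None of the 4 motifs was found in the windows of Atf4, Ddit3, Xbp1 and Ern1, which says only that these letters are not in these 300 bases. The windows with a match read as follows, 5′ to 3′ on the strand of the gene.
Chac1, chr2:119350992-119351291, plus strand: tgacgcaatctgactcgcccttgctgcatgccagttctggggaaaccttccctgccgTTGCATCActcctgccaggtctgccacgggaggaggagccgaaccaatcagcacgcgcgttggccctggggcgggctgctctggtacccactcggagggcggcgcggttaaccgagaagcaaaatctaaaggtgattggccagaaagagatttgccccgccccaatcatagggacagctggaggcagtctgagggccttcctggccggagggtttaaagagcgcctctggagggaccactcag
Trib3, chr2:152344011-152344310, minus strand: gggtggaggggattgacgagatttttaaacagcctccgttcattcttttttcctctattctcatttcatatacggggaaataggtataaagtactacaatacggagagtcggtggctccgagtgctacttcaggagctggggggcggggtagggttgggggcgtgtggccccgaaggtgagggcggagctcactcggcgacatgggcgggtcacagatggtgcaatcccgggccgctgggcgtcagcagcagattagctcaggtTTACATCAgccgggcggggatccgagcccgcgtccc
Asns, chr6:7693160-7693459, minus strand: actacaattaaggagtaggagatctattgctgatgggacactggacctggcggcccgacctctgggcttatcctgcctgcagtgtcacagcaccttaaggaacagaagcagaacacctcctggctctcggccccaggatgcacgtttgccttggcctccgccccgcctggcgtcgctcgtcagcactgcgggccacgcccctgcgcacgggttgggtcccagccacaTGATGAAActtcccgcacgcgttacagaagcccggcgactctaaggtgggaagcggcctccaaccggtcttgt
Hspa5, chr2:34771840-34772139, plus strand: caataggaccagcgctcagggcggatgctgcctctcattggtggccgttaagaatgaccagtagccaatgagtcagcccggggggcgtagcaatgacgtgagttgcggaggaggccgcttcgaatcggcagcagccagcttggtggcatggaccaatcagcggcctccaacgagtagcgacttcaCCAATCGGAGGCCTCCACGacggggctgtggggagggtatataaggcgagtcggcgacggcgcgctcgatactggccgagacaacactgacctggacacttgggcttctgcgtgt
Ppp1r15a, chr7:45526219-45526518, minus strand: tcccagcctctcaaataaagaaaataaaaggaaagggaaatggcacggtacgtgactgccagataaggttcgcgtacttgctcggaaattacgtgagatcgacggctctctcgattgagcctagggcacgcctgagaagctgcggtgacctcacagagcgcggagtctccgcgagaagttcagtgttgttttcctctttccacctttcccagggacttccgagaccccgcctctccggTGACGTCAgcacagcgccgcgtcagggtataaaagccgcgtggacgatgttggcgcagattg
The match in Chac1 spanned positions -193 to -186 from the start, on the opposite strand. The match in Asns spanned positions -23 to -16. The match in Trib3 lay after the start, at positions 15 to 22, on the opposite strand. The ER stress response element of Hspa5 spanned positions -65 to -47, and the cAMP response element of Ppp1r15a positions -12 to -5. Of the listed genes with each motif, 18.7% of 300 with the C/EBP-ATF core, 23.5% of 17 with the ER stress response element, 21.7% of 355 with the cAMP response element and 34.0% of 106 with the unfolded protein response element were called higher in C26 muscles. The shares called lower were 14.7%, 5.88%, 10.7% and 7.55%, and among all genes 19.4% were called higher and 14.5% lower by the rule given further down.

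**Figure D1:**
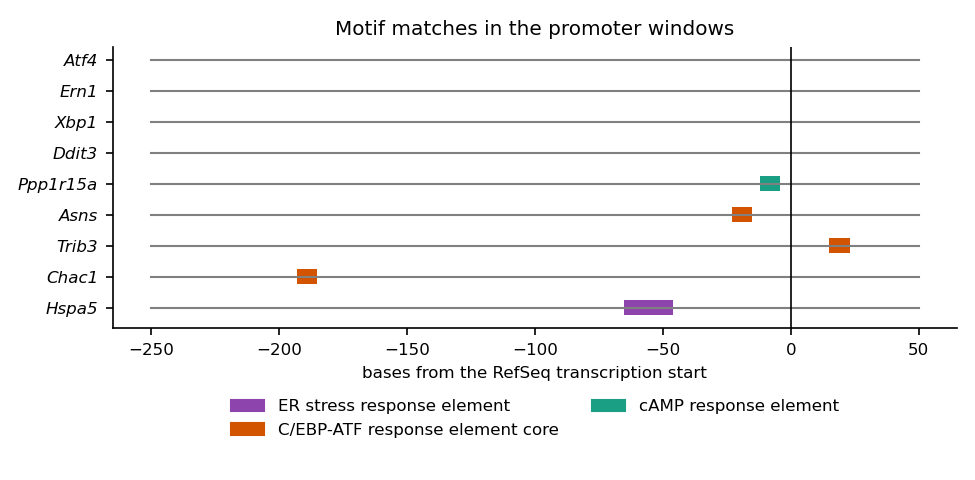
Position of motif matches (colored bars) in the promoter windows of 9 members, in bases from the RefSeq transcription start (vertical line). Chac1, Trib3 and Asns each hold a match to the C/EBP-ATF core, Hspa5 a match to the ER stress response element and Ppp1r15a a match to the cAMP response element.

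Expression was given as FPKM, a measure of fragments that corrects for sequencing depth and for transcript length. The FPKM summed to 531061 to 585169 in the C26 muscles and 626992 to 688300 in the Control muscles, so a gene with an equal share of the total had a lower FPKM in the C26 muscles. Fold changes were therefore taken after rescaling to TPM and TMM scaling, as log2(scaled TPM + 1), a scale that understates the change of low genes. Muscle fiber markers (10 of 10 listed, such as Acta1 and Ckm) summed to 64138 to 99935 FPKM in C26 muscle against 153160 to 167330 in Control muscle, and 3 of them were called lower. Adipocyte markers (9 of 9 listed) summed to 454 to 643 FPKM in C26 muscles and to 5729, 2809 and 800 in Control replicates 1 to 3, and 6 were called lower. Of 8 B cell markers 2 were listed, and they summed to 1277 FPKM in Control replicate 3 against 3.84 to 53.7 in the other 5 muscles. Fibroblast markers (8 of 8 listed) summed to 295 to 464 FPKM in C26 muscle against 706 to 1069.8 in Control muscle with 5 called lower, and endothelial markers (8 of 8) to 59.6 to 70.3 and 77.7 to 115 with 2 called lower. Satellite cell markers (5 of 5) summed to 2.31 to 6.65 FPKM in C26 muscle against 6.01 to 9.55 in Control muscle with 1 called lower. Neutrophil markers (4 of 6 listed) summed to 6.68 to 7.25 FPKM in C26 muscle against 0.85 to 2.89 in Control muscle with 2 called higher, and erythroid markers (4 of 5) to 615 to 1188 and 329 to 508 with 4 called higher. None of the listed markers was at 0 in any muscle, and the unlisted markers may be missing because of low values, which was not tested. For genes of a minor cell type, fewer cells and less RNA per cell cannot be told apart.

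Most of the 10 stress response genes were higher in the wasting muscle, and the known ATF4 targets among them were divided, with Chac1 and Ppp1r15a called higher and Ddit3, Trib3 and Asns not called. With a call at an adjusted p under 0.05 from limma, with Benjamini-Hochberg adjustment over all 13363 genes, 7 of the 10 genes were called higher in C26 muscles, 0 lower and 3 neither. Among all genes 19.4% were called higher and 14.5% lower. At an unadjusted p under 0.05 from limma the counts were 8 higher and 0 lower. The shares of all genes at this looser threshold are not given here, and they are at least 19.4% and 14.5%. Over all genes the calls depended on the scaling, from 2589 higher against 1932 lower to 1678 higher against 2504 lower where the deposited FPKM were not rescaled. With the added criterion of a fold change above 4, Ern1, Ppp1r15a and Xbp1 were upregulated, against 1.76% of all genes. Ppp1r15a met this criterion under every alternative and with any muscle left out. Xbp1 fell short of the fold with quantile normalization (log2 fold change 1.77) and with FPKM as deposited (1.90). It also fell short without C26 replicate 1 (1.96), C26 replicate 2 (1.76) or Control replicate 3 (1.97). Xbp1 was not called with the ordinary linear model or without C26 replicate 1 or Control replicate 1. Ern1 met the fold throughout, but was not called with the ordinary linear model or without C26 replicate 1, C26 replicate 2 or Control replicate 1. Without C26 replicate 2, Chac1 met the criterion as well (2.14). The median log2 fold change was 1.45 over the members and -0.05 over all genes. Every C26 muscle exceeded every Control muscle in FPKM for 6 of the 10, against 18.7% of all genes, and the reverse held for 0, against 34.6% of all genes. In scaled TPM these counts were 7, against 27% of all genes, and 0, against 26.5%. With 1 muscle left out, 3 of the 10 genes were called higher without C26 replicate 1 or without Control replicate 1, 5 without C26 replicate 2 or without Control replicate 2, 6 without Control replicate 3 and 7 without C26 replicate 3. Fits with a muscle left out compare only 5 muscles, and without C26 replicate 1 only 1127 genes of all 13363 were called higher.

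**Figure D2:**
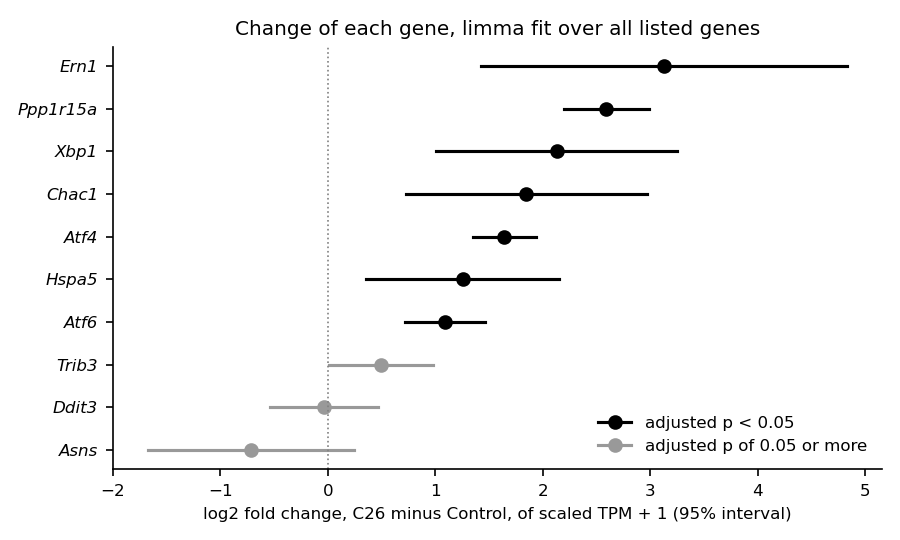
Log2 fold change of each of the 10 genes (points) with its 95% interval from limma (lines), on the x axis as C26 minus Control of log2(scaled TPM + 1). Black marks an adjusted p under 0.05. The 7 genes from Atf6 (1.09) to Ern1 (3.13) are black, and the intervals of Ddit3 and Asns hold 0.

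Atf4 encodes the transcription factor at the center of the integrated stress response. It had 322, 335 and 302 FPKM in C26 replicates 1 to 3 and 115, 111 and 129 FPKM in Control replicates 1 to 3. The groups lay far apart and the C26 muscles differed little among themselves. The log2 fold change by limma was 1.64 (SE 0.12, adjusted p = 0.00128). Without each muscle in turn the value stayed within 1.60 to 1.73. Under the other normalizations it was lowest, at 1.27, with quantile normalization, and it was called under each of the 8 alternatives with all muscles. In rank, Atf4 was above 98.1% to 98.3% of the listed genes in C26 muscles and above 95.8% to 96.3% in Control muscles.

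Ppp1r15a, the feedback regulator that directs dephosphorylation of eIF2, had 56.8, 57.4 and 66.6 FPKM in C26 muscle against 10.1, 11.3 and 11.7 FPKM in Control muscle. Every C26 muscle was more than 4 times above every Control muscle. On the log2 scale the difference was 2.59 (SE 0.16, adjusted p from limma = 0.000887), and it stayed called with any muscle left out, between 2.51 and 2.67.

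Ddit3 encodes CHOP, a transcription factor tied to cell death under lasting ER stress. It had 10.3, 14.8 and 15.8 FPKM in C26 muscle against 16.7, 16.4 and 15.1 FPKM in Control muscle. The groups overlapped. The log2 fold change was -0.04 with a 95% interval from -0.54 to 0.46 (adjusted p = 0.898 from limma), so a rise as large as that of Atf4 lies outside the interval. Its sign turned without C26 replicate 1 (0.15) and without Control replicate 2 (0.04), and the gene was called in no fit.

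Trib3 encodes a pseudokinase that is induced by ATF4 and CHOP and binds Akt. It had 1.24, 2.10 and 1.47 FPKM in C26 muscle against 1.51, 0.95 and 0.92 FPKM in Control muscle, low levels whose ranges overlapped. The log2 fold change of 0.50 (95% interval 0.01 to 0.98) did not pass the adjustment (adjusted p = 0.0986 from limma). With quantile normalization it was 0.85 and passed (adjusted p = 0.0258 from limma), within a range of 0.0258 to 0.247 over the alternatives with all muscles.

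Asns encodes asparagine synthetase, one of the classical genes turned on by ATF4 when amino acids are scarce. It had 0.86, 1.04 and 0.82 FPKM in C26 muscle against 3.54, 2.80 and 0.83 FPKM in Control muscle. Control replicates 1 and 2 stood above all C26 muscles and Control replicate 3 lay among them. The log2 fold change was -0.72 with a 95% interval from -1.67 to 0.24 (adjusted p = 0.202 from limma). Without Control replicate 3 it was -1.20 (adjusted p = 0.00709 from limma), and with the other muscles left out the gene was not called. The summed adipocyte markers of the Control muscles had the same order as Asns, 5729, 2809 and 800 FPKM, whereas those of C26 replicates 1 to 3, 565, 454 and 643 FPKM, had the reverse order, and their part in this value was not tested.

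Chac1 encodes an enzyme that breaks down glutathione. Its FPKM were 66.0, 62.7 and 179 in C26 muscle against 35.9, 18.8 and 35.1 in Control muscle. All C26 muscles were above all Control muscles, with C26 replicate 3 far above the other C26 muscles. In the limma fit its log2 fold change was 1.85 with SE 0.47 (adjusted p = 0.0264). It was not called without C26 replicate 1 (2.08, adjusted p = 0.0562 from limma), without Control replicate 1 (1.98, adjusted p = 0.0672 from limma) or without Control replicate 2 (1.62, adjusted p = 0.0743 from limma). Among the 3 members with a C/EBP-ATF core in the promoter window, Chac1 was thus called higher, and Trib3 and Asns were not called, with log2 fold changes of opposite sign.

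**Figure D3:**
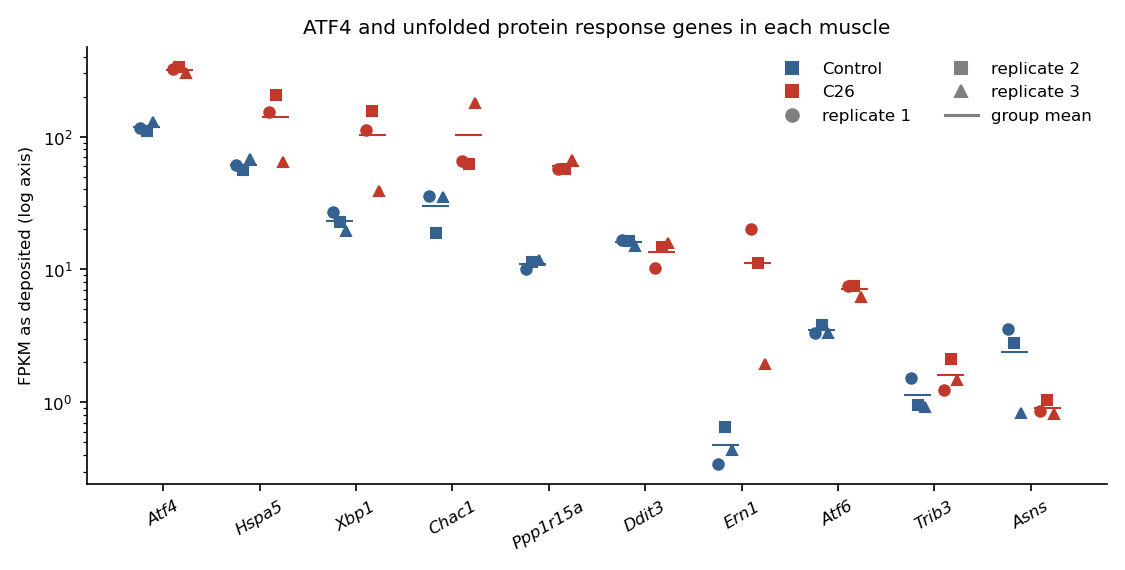
FPKM as deposited (y axis, log scale) of the 10 genes in the 3 Control (blue) and 3 C26 (red) muscles. Marker shapes give the replicate and short lines the group mean. Atf4 and Ppp1r15a form tight, separate groups, whereas the C26 values of Hspa5, Xbp1 and Ern1 are spread, with C26 replicate 3 lowest in each.

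The sensors differed in size of change and in spread. Atf6 encodes the sensor that is cut to a transcription factor, and its transcript had 7.45, 7.56 and 6.18 FPKM in C26 muscle against 3.31, 3.84 and 3.32 FPKM in Control muscle. The groups did not overlap, and limma put the log2 fold change at 1.09 (SE 0.15, adjusted p = 0.00575), called with any muscle left out.

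Ern1 encodes IRE1, the kinase and endonuclease that splices Xbp1. It rose from the lowest level of the 10 genes, with 0.34, 0.65 and 0.44 FPKM in the Control muscles, to 20.1, 11.3 and 1.94 FPKM in the C26 muscles. All C26 muscles were above all Control muscles, yet the C26 muscles differed widely, with C26 replicate 3 nearest to the Control muscles. The rise on the log2 scale was 3.13 (SE 0.71, adjusted p from limma = 0.0187), the largest of the 10 on this scale. Without C26 replicate 3 it was 4.06, and it was not called without C26 replicate 1 (2.48, adjusted p = 0.0544 from limma), C26 replicate 2 (2.91, adjusted p = 0.0647 from limma) or Control replicate 1 (3.03, adjusted p = 0.0685 from limma). The third sensor, Eif2ak3 (PERK), had between 0.72 and 1.23 FPKM in C26 muscle and between 1.18 and 2.50 FPKM in Control muscle. These ranges overlapped, the log2 fold change was -0.35 (limma, adjusted p = 0.240), and its sign turned with quantile normalization (0.04).

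Xbp1 encodes the transcription factor activated by IRE1. It had 113, 156 and 39.2 FPKM in C26 muscle against 27.1, 22.8 and 19.5 FPKM in Control muscle. The groups did not overlap, with C26 replicate 3 nearest to the Control muscles. In the limma fit the log2 difference was 2.13 with SE 0.47 (adjusted p = 0.0170), and without C26 replicate 3 it was 2.76. It was not called without C26 replicate 1 (1.96, adjusted p = 0.0674 from limma) or without Control replicate 1 (2.23, adjusted p = 0.0555 from limma). Values were given per gene, so the spliced and unspliced Xbp1 transcripts were not told apart.

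Hspa5 encodes BiP, the main chaperone of the ER. Its FPKM were 154, 204 and 64.4 in C26 muscle against 61.0, 55.8 and 67.6 in Control muscle. In FPKM, C26 replicate 3 lay inside the range of the Control muscles. In TMM-scaled TPM the C26 muscles had 272, 349 and 122 and the Control muscles 91.3, 94.4 and 97.6, and the groups did not overlap. On the log2 scale limma gave 1.25 (SE 0.38, adjusted p from limma = 0.0436), close to the threshold. It was called in 1 of the 6 fits with a muscle left out, that without C26 replicate 3, at 1.78 (adjusted p = 0.00162 from limma). Without C26 replicates 1 and 2 in turn the log2 fold change was 1.12 and 0.94, and without Control replicates 1 to 3 in turn 1.23, 1.25 and 1.28, with adjusted p from limma between 0.0784 and 0.138. With the replicate number as a block its adjusted p from limma was 0.0671.

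In scaled TPM, Hspa5, Xbp1, Ern1 and Atf6 had their lowest C26 level in C26 replicate 3, where Chac1, Ddit3 and Ppp1r15a had their highest. These were 4 and 3 of the 10 genes, where the shares of all genes were 40.2% and 39.8%. Neither count was thus above the share of all genes. Summed macrophage markers (8 of 8 listed, 0 called) were 116, 313 and 52.6 FPKM in C26 replicates 1 to 3, in the same order as Hspa5 and Xbp1. In Control replicates 1 to 3 they were 107, 57.9 and 243 FPKM, the order of Hspa5 but not of Xbp1. Hspa5 and Xbp1 stayed within 55.8 to 67.6 and 19.5 to 27.1 FPKM in these Control muscles. The part of macrophages in these values was not tested. Plasma cells are known for high Xbp1. Of 9 plasma cell markers 4 were listed, Jchain, Ighm, Igkc, Tnfrsf17 and Derl3 were not, and the listed markers summed to 1.88 to 2.60 FPKM in C26 muscles and to 2.02 to 26.1 FPKM in Control muscles, with 1 called lower.

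**Figure D4:**
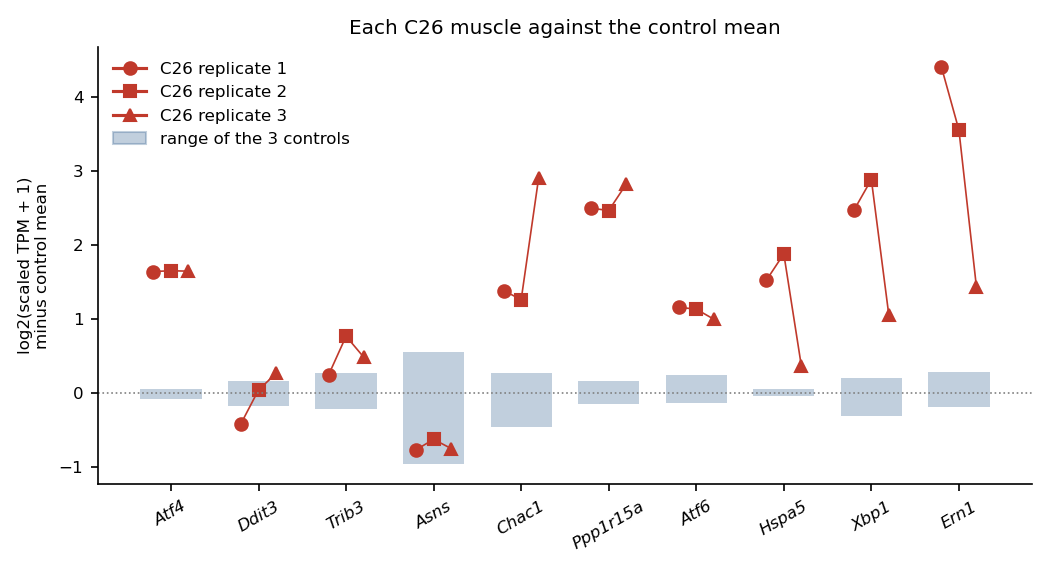
Difference of log2(scaled TPM + 1) from the mean of the Control muscles (y axis) for each gene in C26 replicates 1 to 3 (red, joined by a line only to guide the eye), with the range of the 3 Control muscles as a blue band. Atf4 and Atf6 differ little between C26 muscles. C26 replicate 3 is lowest for Hspa5, Xbp1, Ern1 and Atf6, and highest for Chac1, Ddit3 and Ppp1r15a.

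By mean FPKM ± SD (n = 3), which is per length, the order in Control muscles was Atf4 (119 ± 9.55), Hspa5 (61.4 ± 5.91), Chac1 (29.9 ± 9.66), Xbp1 (23.1 ± 3.79), Ddit3 (16.1 ± 0.834), Ppp1r15a (11.1 ± 0.834), Atf6 (3.49 ± 0.303), Asns (2.39 ± 1.40), Trib3 (1.13 ± 0.332) and Ern1 (0.477 ± 0.158). Neighbors in this order whose ranges overlapped were Chac1 and Xbp1, Atf6 and Asns, and Asns and Trib3. In C26 muscles Atf4 was again first (319 ± 16.7 FPKM), above all of Hspa5 (141 ± 70.7), Xbp1 (103 ± 59.0), Chac1 (102 ± 66.1) and Ppp1r15a (60.2 ± 5.53). The ranges of Hspa5 and Xbp1, Xbp1 and Chac1, and Chac1 and Ppp1r15a overlapped there. Ddit3 (13.6 ± 2.91), Ern1 (11.1 ± 9.08) and Atf6 (7.06 ± 0.767) followed, with the range of Ern1 overlapping those of both its neighbors, and Trib3 (1.60 ± 0.445) and Asns (0.907 ± 0.117) were last.

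Ratios of FPKM within a muscle do not depend on the scaling between muscles, and 3 were examined. Ppp1r15a over Ddit3 was 5.50, 3.87 and 4.23 in C26 muscle against 0.607, 0.691 and 0.776 in Control muscle, so GADD34 transcripts exceeded CHOP transcripts in the C26 muscles only. The log2 difference was 2.70 (two-sided exact permutation test, p = 0.1, the smallest that 3 against 3 allow, 0.15 after Benjamini-Hochberg adjustment over the 3 ratios). Hspa5 over Xbp1 was 1.36, 1.31 and 1.65 in C26 muscle against 2.25, 2.45 and 3.46 in Control muscle, without overlap (log2 difference -0.90, exact permutation test, p = 0.1, adjusted p = 0.15). Atf4 over Hspa5 was 2.09, 1.64 and 4.69 in C26 muscle against 1.89, 1.99 and 1.91 in Control muscle and overlapped (log2 difference 0.39, exact permutation test, p = 0.7, adjusted p = 0.7). Without C26 replicate 3 that difference was -0.06.

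Further targets of ATF4 moved in both directions. Of 32 such genes other than the members, 29 were listed (Gdf15, Fgf21 and Slc7a11 were not), and 12 were called higher, 6 lower and 11 neither, against 19.4% higher and 14.5% lower among all genes, with a median log2 fold change of 0.66. Ddit4, an inhibitor of mTORC1, had 285, 269.8 and 288 FPKM in C26 and 7.16, 8.38 and 32.6 in Control muscles (log2 fold change 4.62, adjusted p = 0.00326 from limma), and without Control replicate 3 its log2 fold change was 5.24. Atf3, a transcription factor induced by many stresses, had 20.1, 98.0 and 9.93 FPKM in C26 muscle against 0.77 to 1.33 in Control muscle (log2 fold change 4.23, adjusted p = 0.00923 from limma). Without C26 replicate 2, by far the highest for Atf3, the log2 fold change was 3.34, without C26 replicate 3 it was 4.98, and Atf3 was called with any muscle left out but not with the ordinary linear model (adjusted p = 0.0527). Eif4ebp1, which encodes a repressor of cap-dependent translation, and Cth, an enzyme of cysteine synthesis, had log2 fold changes of 3.46 and 2.27.

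The genes of this list called lower were enzymes of amino acid synthesis and Nupr1. Phgdh, Psat1 and Psph encode the enzymes that make serine from an intermediate of glycolysis. Phgdh had 0.53, 0.44 and 0.35 FPKM in C26 and 15.7, 7.99 and 11.2 in Control muscles (log2 fold change -3.36, SE 0.22, adjusted p = 0.000887 from limma). Psph had 1.52, 1.26 and 4.56 FPKM against 12.6, 13.2 and 12.4, and Psat1 had 0.48, 1.06 and 0.43 FPKM against 4.79, 2.38 and 4.13. Their log2 fold changes were -2.10 and -1.64, and the C26 and Control values of all 3 genes did not overlap. Psph was not called without C26 replicate 1 (-1.90, adjusted p = 0.0549 from limma) or without Control replicate 1 (-2.12, adjusted p = 0.0511 from limma). Nupr1, a stress-induced chromatin protein, fell by 1.16 on the log2 scale. The remaining genes called lower, Aldh18a1 and Pycr1, enzymes of proline synthesis, fell by 0.77 and 0.73 and were named after their values were seen. Neither was called without C26 replicate 1 (-0.67 and -0.75), C26 replicate 2 (-0.76 and -0.71) or Control replicate 1 (-0.84 and -0.65), and Pycr1 was also not called without Control replicate 2 (-0.64). Adipocyte and fibroblast markers were lower in the C26 muscles as well, and their part in these values was not tested. Without C26 replicate 1 or without Control replicate 1, 3 of the list were called lower, and without C26 replicate 2, 4. Over all genes these fits called 669, 726 and 946 lower, against 1932 with all muscles.

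Genes of eIF2 and its kinases were mostly higher. Of 16 genes, 11 were called higher, 1 lower and 4 neither, where 19.4% of all genes were called higher and 14.5% lower, with a median log2 fold change of 0.84. Impact, an inhibitor of GCN2 activation, had 15.1 to 22.4 FPKM in C26 muscle and 5.84 to 6.98 FPKM in Control muscle (log2 fold change 1.62, adjusted p = 0.00477 from limma). Gcn1, an activator of GCN2, Eif2s1, which encodes the phosphorylated subunit of eIF2, and Eif2b5, a subunit of its exchange factor, had log2 fold changes of 1.30, 1.48 and 1.32. Eif2ak2, the interferon-induced kinase PKR, fell, with 0.67, 0.33 and 0.69 FPKM against 6.36, 2.47 and 1.96 (log2 fold change -1.58, adjusted p = 0.0232 from limma). It was not called without C26 replicate 1 (-1.64), C26 replicate 2 (-1.40) or Control replicate 2 (-1.68). Eif2s1 was not called without C26 replicate 1 (1.33), C26 replicate 2 (1.22) or Control replicate 1 (1.47). Of the other kinases, named after their values were seen, Eif2ak1 (HRI) had a log2 fold change of 1.05 and was not called without C26 replicate 1 (1.02) or Control replicate 1 (1.01). Eif2ak4 (GCN2) had 0.79 (adjusted p = 0.0357 from limma) and was called in 1 of the 6 fits with a muscle left out, that without C26 replicate 3, and not with TPM without TMM, FPKM as deposited, the replicate block or the ordinary linear model. Thus 2 of the 4 kinases were called higher, 1 lower and Eif2ak3 was not called. Without C26 replicate 1 or without Control replicate 1, 5 genes of the list were called higher. Over all genes these fits called 1127 and 1151 higher, against 2589 with all muscles.

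**Figure D5:**
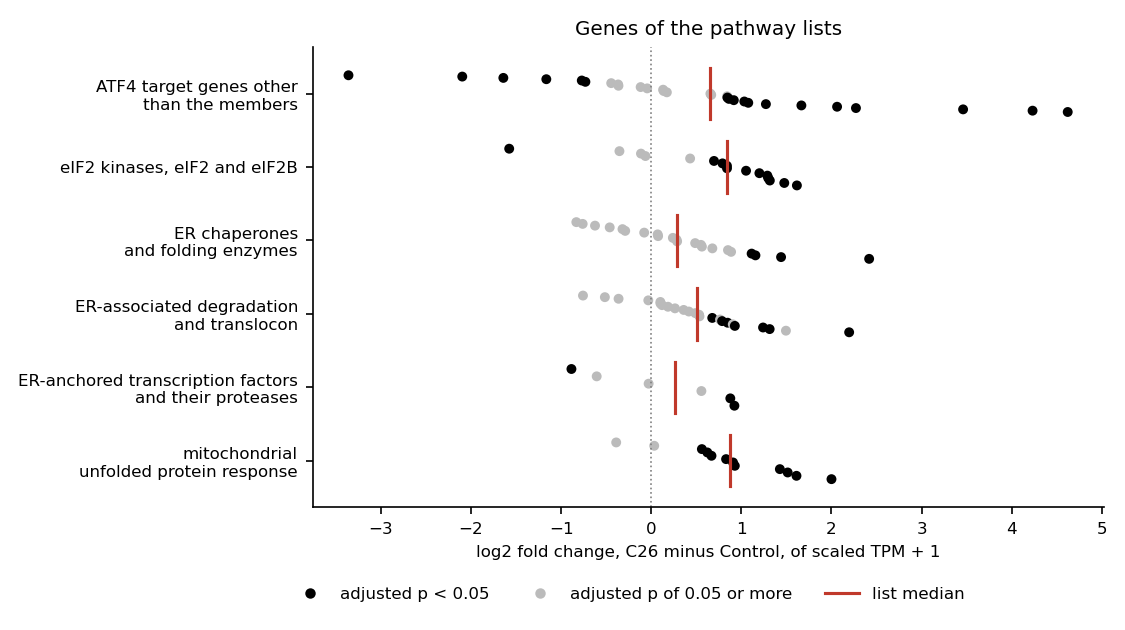
Log2 fold change (x axis, C26 minus Control of log2(scaled TPM + 1)) of each listed gene (points) of 6 pathway lists, with the list median as a red line. Black marks an adjusted p under 0.05. Targets of ATF4 lie on both sides of 0, with 12 called higher and 6 lower, whereas 10 of the 12 genes of the mitochondrial unfolded protein response are called higher.

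ER chaperones and folding enzymes, are the usual output of ATF6 and XBP1. Of 22 genes, 4 were called higher and 0 lower, against 19.4% and 14.5% of all genes. At an unadjusted p under 0.05 from limma 6 were higher and 2 lower, a threshold at which the shares of all genes are not given here. Dnajb9, which encodes ERdj4, a BiP co-chaperone and classical XBP1 target, had 74.4, 100.45 and 55.4 FPKM in C26 and 17.1, 16.7 and 13.5 in Control muscles (log2 fold change 2.42, SE 0.23, adjusted p = 0.00227 from limma). The lectin chaperone Canx (log2 fold change 1.44), the disulfide isomerase P4hb (1.16) and the BiP co-chaperone Dnajc3 (1.11) were also called. Canx was not called without C26 replicate 1 (1.41). P4hb and Dnajc3 were called in 1 of the 6 fits with a muscle left out, that without C26 replicate 3. Those not called include Hsp90b1 (GRP94), with 85.7, 117 and 51.0 FPKM in C26 and 52.8, 42.1 and 60.5 in Control muscles (log2 fold change 0.85, adjusted p = 0.0535 from limma), and Pdia4, with at most 3.64 FPKM in C26 muscle and at least 4.15 FPKM in Control muscle (log2 fold change -0.76, adjusted p = 0.0527 from limma). Both were picked after their values were seen, and both lie near the threshold. With a filter at a mean TPM of 1 their adjusted p from limma were 0.0472 and 0.0486, and that of Hsp90b1 was 0.0491 with an intensity trend. Without C26 replicate 3 Hsp90b1 was called (1.22, adjusted p = 0.00626 from limma). Of the 22 genes, 19 were highest among the C26 muscles in C26 replicate 2 and 17 were lowest in C26 replicate 3, against 32.7% and 40.2% of all genes. Without C26 replicate 3, 9 of the 22 were called higher, without C26 replicate 1 the count was 1, and without any other muscle it was 2. Calls over all genes moved as well, from 2589 higher with all muscles to 3311 without C26 replicate 3 and 1127 without C26 replicate 1. Without any other muscle they numbered 1151 to 2230.

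ER-associated degradation removes misfolded proteins through the translocon and ubiquitin ligases to the proteasome. Of 26 such genes 24 were listed, and 7 were called higher and 0 lower, beside 19.4% and 14.5% of all genes. At an unadjusted p under 0.05 from limma 10 were higher and 1 lower, a threshold at which the shares of all genes are not given here. Ubxn4, an ER adaptor of the ATPase p97, had 78.3, 93.3 and 52.7 FPKM in C26 and 17.9, 18.0 and 17.9 in Control muscles (log2 fold change 2.2, SE 0.20, adjusted p = 0.00205 from limma). Sec63 of the translocon, the lectin Erlec1 and the ubiquitin-conjugating enzyme Ube2j1 followed with log2 fold changes of 1.31, 1.24 and 0.93. Sec63 was not called without C26 replicate 1 (1.31), Control replicate 1 (1.33) or Control replicate 2 (1.31). Of the 24 genes, 20 were highest among the C26 muscles in C26 replicate 2 and 16 were lowest in C26 replicate 3, where the shares of all genes were 32.7% and 40.2%. Without C26 replicate 3, 13 were called higher, and without C26 replicate 1 or without Control replicate 1, 4. Over all genes these fits called 3311, 1127 and 1151 higher, against 2589 with all muscles.

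Of the ER-anchored transcription factors other than Atf6 and the proteases that cut them, 6 genes, 2 were called higher and 1 lower, beside 19.4% and 14.5% of all genes. Mbtps2, the site-2 protease, and Creb3 had log2 fold changes of 0.92 and 0.88, and Creb3l1 had -0.88. Without C26 replicate 1 or without Control replicate 1 neither Mbtps2 nor Creb3 was called, and Creb3 was also not called without Control replicate 2 (0.87) or Control replicate 3 (0.84). Without Control replicate 3, 2 genes of the list were called lower.

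The chaperones and proteases of the mitochondrial unfolded protein response keep mitochondrial proteins folded. Of 12 such genes 10 were called higher and 0 lower, while 19.4% of all genes were called higher and 14.5% lower. At an unadjusted p under 0.05 from limma 1 gene of the list was lower, a threshold at which the share of all genes is not given here. The median log2 fold change of the list was 0.87. Afg3l2, a protease of the inner membrane, had 133, 110.03 and 51.4 FPKM in C26 and 25.8, 29.6 and 22.7 in Control muscles (log2 fold change 2.0, SE 0.35, adjusted p = 0.00913 from limma). Clpx and Clpp, which form a matrix protease, and the chaperone Hspa9 had log2 fold changes of 1.61, 1.51 and 1.43. Without C26 replicate 1 or without Control replicate 1, 4 of the genes were called higher, without C26 replicate 2, 5, and without Control replicate 3, 7. Over all genes these fits called 1127, 1151, 1528 and 2230 higher, against 2589 with all muscles.

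The genes whose levels ran most like those of Atf4, Hspa5 and Xbp1 were taken by Pearson's r of log2(scaled TPM + 1) over the 6 muscles, among the genes with a mean TPM of at least 5. The 6 points fall into 2 groups, and share the scaling, so r is given as a description. For Atf4 these were Psmc5 (r = 0.9984), 4932438A13Rik (0.9983) and Tax1bp1 (0.9982). Psmc5, a proteasome subunit gene, had 230.3, 236 and 204 FPKM in C26 and 139, 131 and 152 in Control muscles. For Hspa5 these were Sap18b (r = 0.9996), Sms-ps (0.9979) and Sec24c (0.9975), and Sap18b and Sms-ps have near-identical relatives between which reads could be split. Sec24c, a COPII coat subunit gene, had 31.7, 41.6 and 16.6 FPKM in C26 and 17.6, 16.5 and 19.4 in Control muscles, with C26 replicate 3 at the level of the Control muscles as for Hspa5. For Xbp1 these were a gene without a symbol in the table used (Entrez gene ID 108167814, r = 0.9985), Fam8a1 (0.9985) and N4bp1 (0.9975). Fam8a1 had 46.5, 60.3 and 24.9 FPKM in C26 and 19.7, 18.0 and 16.5 in Control muscles.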

How the data were processed

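RNA was sequenced from the gastrocnemius in 3 C26 and 3 Control samples, and groups and replicates were taken from the sample labels. The authors made the deposited FPKM by removing rRNA, adaptor and low-quality reads, aligning single-end reads of 50 bases with bowtie2 and quantifying them by RSEM. The methods name GRCm38.p5, and the submitters' processing notes name mm9, HISAT2 2.0.4, Bowtie2 2.2.5 and RSEM 1.2.12. The extraction text of the labels also speaks of infected THP-1 cells, a human line, although the same labels give the organism as mouse and the source as gastrocnemius. No coordinates of the files were used. Low values showed no steps of whole reads, so the depth and the counting error are unknown, and precision rests on the spread between muscles.

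Entrez gene IDs were matched to symbols of GRCm38.p6 for 13327 of 13363 genes. Each sample was brought to a total of 1000000 (TPM) and then scaled by unweighted TMM, with trims of 30% on log ratios and 5% on mean levels. Log2 values after adding 1 were fitted with limma (version 3.58.1, in R version 4.3.3) and its empirical Bayes step. The intervals are moderated 95% intervals. The fit was tested on simulated data. The labels number the replicates without naming animals, so p-values measure the spread between these 6 samples.

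The members and lists were chosen with earlier results of these data known. Named are all members and, from each list, up to 4 genes called higher and 4 called lower with the largest changes. Also named are markers of cell types, the 3 genes most like Atf4, Hspa5 and Xbp1, and genes said to be picked later, to which Eif2ak3 belongs. A planned count of proteins with an ER retention signal was not made, since protein sequences were not used here. The fit was repeated with quantile normalization, with unscaled TPM, with the deposited FPKM, with a pseudocount of 0.1, with a filter at a mean TPM of 1, with an intensity trend, with an ordinary linear model, with replicate number as a block, and without each muscle in turn. Figures were drawn with Python 3.11.15 and matplotlib 3.10.9.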

Additional observations from a re-analysis of the deposited data

How the results depend on the processing

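With all muscles, Atf4, Ppp1r15a and Atf6 were called higher under each alternative, and Ddit3 and Asns were called under none. Hspa5 had log2 fold changes of 1.29 with TPM without TMM, 1.04 with FPKM as deposited, 0.89 with quantile normalization, 1.25 with the replicate block and 1.25 with the ordinary linear model, and was not called in these. Chac1 was not called with quantile normalization (1.40) or the ordinary linear model (1.85). Xbp1 (2.13) and Ern1 (3.13) were not called with the ordinary linear model, and Trib3 was called with quantile normalization (0.85). Of the other genes named, the ordinary linear model did not call Atf3, Psph, Eif2s1, Eif2ak2, Canx, P4hb, Dnajc3, Sec63, Creb3, Eif2ak4, Aldh18a1 and Pycr1. Quantile normalization did not call Eif2ak2, P4hb, Creb3, Creb3l1, Aldh18a1 and Pycr1, FPKM as deposited did not call P4hb, Dnajc3, Creb3 and Eif2ak4, and TPM without TMM did not call P4hb and Eif2ak4.

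With FPKM as deposited, 1678 of all genes were called higher and 148 upregulated at a fold above 4, and the counts were 2 for chaperones called higher, 1 and 2 for ER-anchored factors called higher and lower, and 1 for mitochondrial genes called lower. The ordinary linear model called 1525 of all genes higher and 959 lower, with 122 downregulated at a fold above 4. It called 3 members higher, 1 of them at a fold above 4, 3 targets of ATF4 lower, 0 eIF2 genes lower, 1 chaperone, 1 ER-anchored factor and 6 mitochondrial genes higher. Quantile normalization called 1 chaperone lower, 4 degradation genes higher, 1 ER-anchored factor higher and 0 lower, and 5 mitochondrial genes higher and 1 lower. A pseudocount of 0.1 gave 566 genes downregulated at a fold above 4, and a mean TPM of at least 1 gave 1 chaperone called lower.

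The replicate numbers did not pair the muscles, with correlations of -0.04, -0.08 and -0.11 between the deviations of same-numbered muscles, and no muscle correlated best with its own number. The replicate block gave 1235 genes called lower and 1 ER-anchored factor called higher, and of the members it changed only the call of Hspa5. Of the other genes named, Dnajc3, Creb3, Eif2ak4 and Pycr1 were not called with it. Quantile normalization turned the sign of Eif2ak3 (0.0407).

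With a muscle left out, 1127 to 3311 of all genes were called higher and 669 to 2160 lower, and at a fold above 4 the counts were 176 to 376 and 135 to 269. Of the members 3 to 7 were called higher, 0 to 1 lower (Asns) and 1 to 3 at a fold above 4. Calls numbered 3 to 6 for targets of ATF4 lower, 5 to 11 for eIF2 genes higher and 0 to 1 lower, 1 to 9 for chaperones higher, 4 to 13 for degradation genes higher, 0 to 2 for ER-anchored factors higher and 1 to 2 lower, and 4 to 10 for mitochondrial genes higher. The log2 fold changes ranged from -0.13 to 0.15 for Ddit3 (0.0416 without Control replicate 2), -1.20 to -0.44 for Asns, 1.40 to 2.14 for Chac1, 0.94 to 1.78 for Hspa5, 1.76 to 2.76 for Xbp1 and 2.48 to 4.06 for Ern1, and the log2 ratio of Atf4 over Hspa5 from -0.0596 to 0.70. Chac1, Hspa5, Xbp1 and Ern1 are thus limited by the spread between 3 muscles.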
